A study of Arabidopsis thaliana with 144 samples.

Results

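The comparison examined here is SynCom against no bacteria in phr1 phl1 seedlings at low phosphate (Pi). SynCom is a synthetic community of bacteria, and phr1 phl1 is a double mutant of PHR1 and PHL1. The libraries were chosen by their titles, 12 with SynCom and 12 without bacteria, and these 24 belong to a series of 36 groups of 4 Arabidopsis thaliana libraries. RNA came from whole seedlings, so that fewer cells of a type and less RNA per cell cannot be told apart. Pre-treatment lasted 7 days, on 5 µM Pi for -P, on 1 mM Pi for +P and, for +Phi, on 1 mM phosphite, an analogue of Pi that plants do not metabolise. Seedlings then spent 12 days at 50 µM Pi without sucrose, alone or with SynCom. Each pre-treatment and bacterial arm had 4 libraries, 2 from experiment A and 2 from experiment B, so that an arm had 6 libraries per experiment. Comparison groups were Col-0, the wild type, at the same 50 µM Pi, and phr1 phl1 at 625 µM Pi (high Pi), each with another 24 libraries of the same pre-treatments. The mutant alleles and the strains of the community are not given in the sources used here.

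PHR1 and PHL1 are MYB transcription factors that bind a short palindrome in the promoters of Pi starvation genes. In their absence most of that programme, which includes Pi transporters, phosphatases, membrane lipid exchange and the signalling RNA IPS1, responds weakly to Pi shortage. PHR1 also links Pi status to immunity, since it is known to dampen salicylic acid and other defence genes during Pi starvation. The comparison asks which genes respond to the bacteria in seedlings that lack both factors, and which of these responses recur in 2 experiments.

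The 24 libraries held between 720256 and 7440059 gene counts, with a median of 3334122. The shallowest, -P with SynCom, A1, also had the highest residual spread, 0.534 on the log2 scale against 0.432 or less in the others, and was kept. PHR1 and PHL1, the targeted genes, were examined first. PHR1 lay between 11.4 and 38.0 CPM (gene counts scaled to 1 common library total) in the 24 libraries, with a median of 29.8, against a median of 60.9 in Col-0. PHL1 was more abundant in the mutant, with a median of 56.8 CPM against 14.2 in Col-0, and the ratio of PHR1 to PHL1 counts was 0.159 to 1.07 in the mutant libraries. In Col-0 the median ratio was 4.14, and 1 library labelled Col-0 (+Phi, no bacteria, A1) fell within the mutant range at 0.373. Among the mutant libraries at high Pi, the one labelled +P with SynCom, A1, had a ratio of 4.07. Comparisons with Col-0 and with high Pi are given with all libraries under their labels, and the closing section gives their counts without these libraries. The sources used here do not say whether libraries of a group came from separate plates or pools, so that p-values measure the spread between these libraries, which may be technical. The libraries were not stranded, so reads of a gene and of an antisense partner cannot be told apart.

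Experiment was the main axis of the 24 libraries. Of the variance among them 32.6% lay on principal component 1, and 74.3% of the spread along it was between experiments. Across 17246 tested genes the log2 fold changes of the 2 experiments had a Pearson correlation of -0.04. Genes are not independent replicates, and A and B share no library. A gene was called at a Benjamini-Hochberg adjusted p under 0.05 in edgeR's quasi-likelihood test. In experiment A 640 genes were called (3.71% of those tested), 394 higher (2.28%) and 246 lower (1.43%) with SynCom. In experiment B 1288 were called (7.47%), 720 higher (4.17%) and 568 lower (3.29%). The effect itself differed between B and A for 1282 genes (7.43%). These counts depended on the number of libraries, with 56 genes called in A without A1 and 63 without A2, 337 called in B without B1 and 134 without B2, and 61 (without B2) to 570 (without B1) for the difference.

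A pooled fit with experiment and pre-treatment as blocks called 479 genes (2.78%), 274 higher (1.59%) and 205 lower (1.19%). Genes called in A and in B in one direction are termed shared here, and there were 79 of them (0.458% of genes tested). With SynCom 41 were higher (0.238%) and 38 lower (0.220%), and all 79 were also called in the pooled fit. Another 40 genes were called in both experiments in opposite directions (0.232%), 26 higher in A (0.151%) and 14 higher in B (0.0812%), and the genes called in both thus came to 0.690%. By the test of B against A, 3 of the 79 shared genes differed in size, against 7.43% of all genes tested. These 3 were the lipid transfer protein gene AT4G12500, the glutamate receptor gene GLR2.3 and AT5G26280. Calls of one sign in A and in B chose the 79, so that nothing is read from this count. Leaving out the libraries with one replicate label, which leaves 1 library an arm and pre-treatment in that experiment, gave 13 shared genes without A1, 16 without A2, 21 without B1 and 13 without B2. Of these, 11, 16, 15 and 11 were among the 79. The gene AT3G07580 was just inside, with adjusted p = 0.0496 in A, and CML11, a calmodulin-like gene, was just outside, with adjusted p = 0.0525 in A (edgeR).

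**Figure D1:**
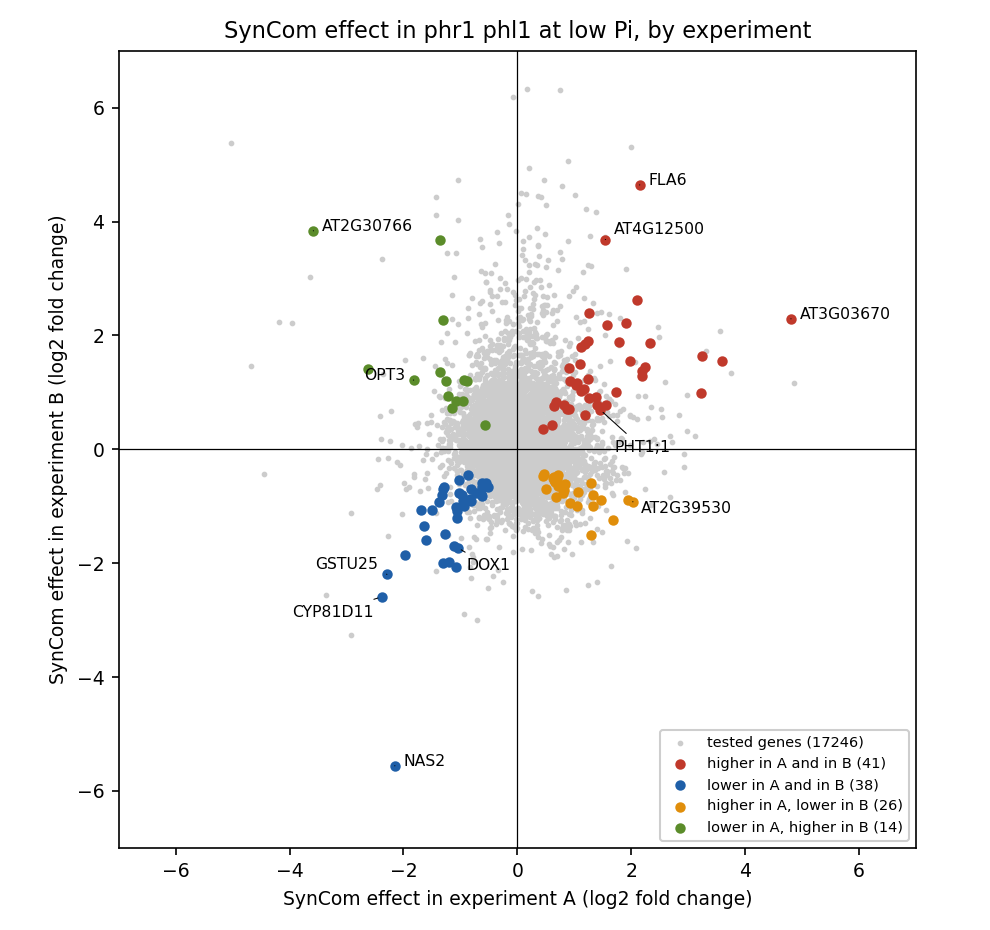
SynCom effect of each of 17246 tested genes in phr1 phl1 at low Pi, as log2 fold change in experiment A (horizontal axis) and in experiment B (vertical axis). Coloured points are genes called in both experiments: 41 higher in both, 38 lower in both, 26 higher in A and lower in B, and 14 lower in A and higher in B.

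The shared genes are shown first through the promoters of a few of them, because several lower genes encode detoxification enzymes and some higher genes, chosen for display, encode a chitinase and a peroxidase. The letters TGACG are the core that TGA factors, the regulators of detoxification and salicylic acid genes, are known to bind. TTGACC and TTGACT are W-boxes, the sites of WRKY factors of immunity. Windows of 250 bases before the annotated gene start were read from the RefSeq genome TAIR10.1, and these 7 genes were chosen for display after their matches were seen. All sequences run 5′ to 3′ in the direction of the gene. The first 4 belong to genes that were lower with SynCom, and capitals mark TGACG on either strand (read as CGTCA where it lies on the opposite one). W-boxes are not marked in these 4, and GSTU24 and GSTU7 hold 1 each. CYP81D11 lies at chr3:10790554-10790803 on the minus strand, GSTU25 at chr1:5871774-5872023 on the plus strand, GSTU24 at chr1:5869293-5869542 on the plus strand and GSTU7 at chr2:12618900-12619149 on the minus strand.
CYP81D11: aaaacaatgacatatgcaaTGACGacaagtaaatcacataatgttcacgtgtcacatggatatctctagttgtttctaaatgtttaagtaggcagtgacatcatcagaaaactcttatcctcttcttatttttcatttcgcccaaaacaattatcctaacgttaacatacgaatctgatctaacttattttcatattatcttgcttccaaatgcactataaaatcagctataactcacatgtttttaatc
GSTU25: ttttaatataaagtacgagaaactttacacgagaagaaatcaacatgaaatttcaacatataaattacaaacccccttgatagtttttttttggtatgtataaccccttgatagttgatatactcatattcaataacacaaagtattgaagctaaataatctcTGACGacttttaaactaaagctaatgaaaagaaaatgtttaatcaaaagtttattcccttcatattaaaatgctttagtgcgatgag
GSTU24: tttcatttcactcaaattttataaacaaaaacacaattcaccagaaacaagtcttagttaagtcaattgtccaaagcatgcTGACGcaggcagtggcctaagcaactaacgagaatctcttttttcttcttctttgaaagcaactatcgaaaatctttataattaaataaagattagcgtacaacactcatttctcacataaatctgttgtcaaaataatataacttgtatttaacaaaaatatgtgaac
GSTU7: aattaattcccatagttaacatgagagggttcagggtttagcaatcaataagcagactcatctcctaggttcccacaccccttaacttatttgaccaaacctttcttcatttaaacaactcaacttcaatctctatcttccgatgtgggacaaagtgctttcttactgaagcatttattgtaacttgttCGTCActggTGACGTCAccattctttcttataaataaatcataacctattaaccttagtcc
The next 3 belong to genes that were higher with SynCom, and capitals mark W-boxes, which read as GGTCAA or AGTCAA where they lie on the opposite strand. TGACG is not marked in these 3, and AT5G64120 holds 1. AT5G44585 lies at chr5:17984277-17984526 on the plus strand, the chitinase gene AT2G43620 at chr2:18095094-18095343 on the minus strand and the peroxidase gene AT5G64120 at chr5:25661008-25661257 on the minus strand.
AT5G44585: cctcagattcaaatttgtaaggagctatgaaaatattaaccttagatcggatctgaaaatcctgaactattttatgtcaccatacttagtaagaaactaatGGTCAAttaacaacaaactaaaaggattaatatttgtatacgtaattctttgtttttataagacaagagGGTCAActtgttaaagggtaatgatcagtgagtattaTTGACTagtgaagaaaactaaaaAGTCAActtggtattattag
AT2G43620: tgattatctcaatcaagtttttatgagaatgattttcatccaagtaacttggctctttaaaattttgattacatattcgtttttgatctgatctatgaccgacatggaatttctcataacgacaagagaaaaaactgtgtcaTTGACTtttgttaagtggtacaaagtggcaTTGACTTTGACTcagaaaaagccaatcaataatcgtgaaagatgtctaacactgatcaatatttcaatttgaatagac
AT5G64120: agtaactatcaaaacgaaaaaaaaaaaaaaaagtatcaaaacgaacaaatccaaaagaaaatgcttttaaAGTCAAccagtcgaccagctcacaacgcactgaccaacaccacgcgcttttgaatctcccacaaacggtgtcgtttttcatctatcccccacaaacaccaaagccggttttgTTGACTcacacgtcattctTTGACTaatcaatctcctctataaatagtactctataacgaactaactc

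Counted over both strands, TGACG stood in the window of 14 of 38 shared lower genes (36.84%), in 13 of 41 shared higher genes (31.71%) and in 19.45% of 17231 tested genes with a window. At least 2 copies stood in 7 of the lower genes (18.42%), in 1 of the higher genes (2.44%) and in 3.56% of all tested genes. A W-box stood in 23 of the higher genes (56.1%), in 15 of the lower genes (39.47%) and in 28.53% of all tested genes, and at least 2 copies in 9 of the higher genes (21.95%) against 6.15% of all. TGACG and the W-boxes share the letters TGAC, but the base after them differs, so that a stretch cannot match both on one strand. The PHR1 site, GNATATNC, stood in 2 of the higher genes (4.88%), in 1 of the lower genes (2.63%) and in 5.46% of all. The G-box CACGTG stood in 1 of the higher genes (2.44%), in 3 of the lower genes (7.895%) and in 7.38% of all. Of the 14 tested genes of the electrophile response and detoxification list, described next, 7 had TGACG (50%) and 9 had a W-box (64.29%). At least 2 copies stood in 2 of these 14 for TGACG (14.29%) and in 3 for the W-box (21.43%). W-boxes were thus not confined to the higher genes. These are matches of letters in a short window, given as a description with no test.

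Of 14 tested genes of the electrophile response and detoxification list, 5 were called lower with SynCom in both experiments, CYP81D11, GSTU1, GSTU24, GSTU25 and OPR2. In the pooled fit 8 were called lower and 0 higher, in A 9 lower and in B 6, where 1.19%, 1.43% and 3.29% of all genes tested were lower. The value was below 0 for all 14 in A and above 0 for 4 of the 14 in B. The median effect over the 14 was -0.84 on the log2 scale, against 0.00 over all genes tested. This list was drawn up with earlier results of these data known, so that its direction is not independent evidence.

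CYP81D11, a cytochrome P450 gene induced by xenobiotics, led the list. Without bacteria its level ran from 60.6 to 131 CPM in A (median 70.6) and from 31.5 to 67 in B (median 50.5). With SynCom it ran from 9.86 to 30.0 CPM in A (median 15.6) and from 3.83 to 12.6 in B (median 8.39). All SynCom libraries of an experiment lay below all its libraries without bacteria, as for 2.41% of tested genes in A and 3.15% in B that did not overlap in either direction. Its log2 fold change was -2.48 ± 0.19 (SE) in the pooled fit (adjusted p = 3.84e-08, edgeR, 12 libraries an arm), -2.38 in A and -2.59 in B.

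GSTU24 and GSTU25, neighbours on chromosome 1, encode tau glutathione transferases, which join glutathione to reactive compounds. GSTU25 ran from 62.2 to 99.5 CPM without bacteria in A (median 73.8) and from 11 to 33.9 in B (median 18.3). With SynCom it ran from 4.66 to 31.8 CPM in A (median 14.4) and from 0.638 to 8.6 in B (median 3.56). The arms did not overlap in either experiment, although the level without bacteria was lower in B than in A. The fold change was -2.25 ± 0.25 (adjusted p = 8.72e-06, edgeR). GSTU24 fell by 1.60 ± 0.17 on the log2 scale (adjusted p = 4.67e-06, edgeR), with medians of 92.9 and 33.4 CPM in A and 24.6 and 9.10 CPM in B. The pair is similar in sequence, and reads may have been shared between them. GSTU7 fell by 1.28 ± 0.13 and GSTU1 by 1.04 ± 0.13, both shared and with arms apart in both experiments. By their RefSeq symbols 23 tau glutathione transferase genes were tested, of which 7 were called lower and 2 higher in the pooled fit. Over all genes tested 1.19% were called lower and 1.59% higher in that fit. One of the 2 was the shared gene GSTU11, which was higher with SynCom (1.28 ± 0.26, adjusted p = 0.00615, edgeR). This pooled call was lost without A2 and without B1.

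OPR2, a 12-oxophytodienoate reductase thought to act on reactive enones rather than in jasmonate synthesis, had medians of 28.1 CPM without bacteria and 6.04 with SynCom in A. In B the medians were 14.4 and 6.57 CPM, and the arms were apart in both experiments. UGT74E2, a glucosyltransferase of an auxin precursor, was called lower in the pooled fit (-1.73 ± 0.31) and in B (-2.14), and its value in A was -1.43 (adjusted p = 0.0539, edgeR). Members without a pooled call included DTX1, a multidrug exporter, at -0.20, and NAC032, a transcription factor, at -0.30. CYP81D8 had -1.2 in A, where it was called, and 1.06 in B, where it was not.

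Beyond the list, the shared lower genes held other enzymes of conjugation and export. UDP-glycosyltransferases attach sugars to small molecules. Of 41 tested under a UGT symbol, 7 were called lower in the pooled fit and 0 higher, where 1.19% and 1.59% of all genes tested were, and UGT73B2, UGT73B3, UGT73B5 and UGT74D1 were shared. UGT73B2 and UGT73B3 are near copies of each other, and their counts may be split. UGT73B2 had medians of 114 CPM without bacteria and 47.0 with SynCom in A, and of 36 and 17.1 CPM in B. Of 91 tested genes with an ABC transporter symbol 6 were called lower and 2 higher, and the share higher lay near the 1.59% of all genes tested. The shared ones were ABCB15, ABCB4, an auxin carrier, ABCC2, a vacuolar pump of glutathione conjugates, and ABCC8. ABCB15 ran from 33 to 50.9 CPM without bacteria in A and from 14.6 to 21.7 with SynCom. In B it ran from 17.0 to 45.6 and from 7.23 to 14.0 CPM, again without overlap, and its pooled fold change was -1.38 ± 0.13 (adjusted p = 5.9e-07, edgeR). The genes UGT73B2, UGT73B3, UGT73B5, UGT74D1, ABCB4, ABCC2 and ABCC8 were named after their values were seen.

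DOX1, an alpha-dioxygenase of fatty acid oxidation, was among the shared lower genes. It ran from 523 to 660 CPM without bacteria in A (median 599) and from 270 to 465 in B (median 394). With SynCom it ran from 243 to 366 CPM in A (median 269.8) and from 57.2 to 164 in B (median 118). The arms were apart in both experiments, at -1.39 ± 0.16 in the pooled fit (adjusted p = 1.33e-05, edgeR). BGLU11, a beta-glucosidase, fell by 1.36 ± 0.19, with medians of 107 and 58.1 CPM in A and 28.4 and 6.78 CPM in B. AT2G18193, annotated as a P-loop nucleoside triphosphate hydrolase, fell by 1.91 ± 0.24, and AT2G32020, an acyl-CoA acyltransferase family gene, by 1.51 ± 0.23. AT5G24640, an uncharacterized gene, fell by 1.5 ± 0.31 from low levels in B, where the SynCom arm had 13 counts in all, and it was not called without A1 (-1.67).

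None of the 41 shared higher genes was on the salicylic acid, jasmonate, ERF branch, pattern-triggered immunity or camalexin lists, each of which held 0 of them. Over all genes tested 0.238% were shared higher, and these lists held 5 to 29 tested genes each. Nothing is therefore read from the counts of 0. The shared higher genes are described singly. AT5G64120 is a class III peroxidase gene of the cell wall. It ran from 295 to 608 CPM without bacteria in A (median 534) and from 71.6 to 303 in B (median 124). With SynCom it ran from 329 to 2054 CPM in A (median 1314) and from 328 to 752 in B (median 474). The arms overlapped in A, where 1 SynCom library lay among the libraries without bacteria, and not in B. The pooled fold change was 1.49 ± 0.26 (adjusted p = 0.00114, edgeR).

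AT2G43620, a chitinase family gene, had medians of 20.3 and 63.6 CPM in A and of 6.37 and 29.6 CPM in B, with overlap in both, and a pooled fold change of 2.24 ± 0.43 (adjusted p = 0.00345, edgeR), which was not called without B1. PDF1.4, a defensin-like gene, had medians of 27.4 and 103 CPM in A and of 4.80 and 22.4 CPM in B (1.84 ± 0.31). AT4G12500, a gene of the lipid transfer protein family, had medians of 30.8 and 99.7 CPM in A and of 1.76 and 32.2 CPM in B (2.30 ± 0.36). For both genes the arms overlapped in A and not in B. AT3G03670, another peroxidase gene, had 9 counts in all without bacteria in A, and medians of 0.250 and 11.8 CPM there and of 1.22 and 8.63 CPM in B. Its pooled fold change of 3.22 ± 0.47 had the largest size among shared genes with at least 5 CPM on average.

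MLO12, a membrane protein that mildew fungi depend on, ran from 19.4 to 37.1 CPM without bacteria and from 50.3 to 157 with SynCom in A. In B it ran from 19.8 to 52.7 and from 45.3 to 112 CPM, with overlap, and the pooled fold change was 1.36 ± 0.22 (adjusted p = 0.000584, edgeR). GLR2.3, a glutamate receptor channel, had 15 counts in all without bacteria in A, and medians of 0.675 and 6.16 CPM there. In B its medians were 10.4 and 21.9 CPM, so the arm without bacteria in B lay above the SynCom arm in A. AT5G44585, a gene without a symbol in RefSeq's table whose promoter is printed above, had medians of 12.8 and 46.2 CPM in A and of 11.5 and 35.7 CPM in B (1.70 ± 0.26). AT2G36690, an oxygenase family gene, rose by 2.34 ± 0.31, AT3G18250, a putative membrane lipoprotein gene, by 1.44 ± 0.26, and HMT3, a homocysteine methyltransferase of methionine synthesis, by 1.85 ± 0.29.

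BRU6, a GH3 gene of auxin response, was higher in all SynCom libraries of an experiment than in all its libraries without bacteria. It ran from 9.71 to 17.0 CPM without bacteria in A (median 15.3) and from 6.45 to 12.0 in B (median 9.76). With SynCom it ran from 52.6 to 87.0 CPM in A (median 68.0) and from 12.2 to 53.4 in B (median 23.3). The arms were apart in both experiments, with SynCom above for 3 of the 41 shared higher genes and for 0.0174% of all genes tested, and with SynCom below for 12 of the 38 shared lower genes and 0.0754% of all. The calls in A and in B chose these genes, so that nothing is read from the shares. The pooled fold change was 1.89 ± 0.18 (adjusted p = 8.68e-07, edgeR). GH3.3 and GH3.5, relatives on the auxin response list, had 0.62 and 0.52 and were not called.

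Genes of signalling were the next group among the shared higher genes, and they and the genes in the next paragraph were named after their values were seen. AT1G51850 and AT5G37450, leucine-rich repeat kinase genes, rose by 1.07 ± 0.19 and 1.69 ± 0.23 on the log2 scale, and AT3G46280, a kinase-like gene, by 1.11 ± 0.20. AT3G46280 had medians of 65.4 and 193 CPM in A and of 29.2 and 68.6 CPM in B, with arms apart in B. PBL1, a cytoplasmic kinase related to those of immune receptors, had the smallest pooled change of the 41 at 0.41 ± 0.08. WRKY71, a transcription factor, rose by 1.58 ± 0.26, and had 7 counts in all without bacteria in B, too few for a fold there. It was the shared member of 50 tested WRKY genes. Of these 50, 4 were called higher and 0 lower in the pooled fit, where 1.59% of all genes tested were higher. The others were WRKY11 (0.62 ± 0.14), WRKY17 (0.53 ± 0.12) and WRKY28 (0.78 ± 0.19). MES1, a methyl esterase, rose by 1.70 ± 0.31 from medians of 0.749 to 3.12 CPM in A and of 2.19 to 6.6 CPM in B. FLA6, an arabinogalactan protein gene of the cell surface, rose by 3.18 ± 0.49, with medians of 0.407 and 2.69 CPM in A and of 0.181 and 5.57 CPM in B. It had 12 counts in all without bacteria in A and 4 in B, too few for a fold in B.

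Metabolic genes among the shared lower set included SERAT2;1, a serine acetyltransferase of cysteine synthesis, at -0.67 ± 0.10, with medians of 110.0 and 62.6 CPM in A and of 49.6 and 36.6 CPM in B. CYP72A13, a cytochrome P450, fell by 0.57 ± 0.10, the smallest pooled change of the 38. AT4G19880, a further glutathione transferase family gene, had medians of 185.6 and 123 CPM in A and of 168 and 88.9 CPM in B. AT5G61820, annotated as a stress up-regulated Nod 19 protein, had 191.6 and 89.1 CPM in A and 85.2 and 45.8 CPM in B. AT5G38200, a glutamine amidotransferase-like gene, and AT5G14730, an uncharacterized gene, fell by 1.12 ± 0.15 and 0.84 ± 0.13, and their arms were apart in both experiments. Among the 41 shared higher genes the median pooled change was 1.28, and among the 38 shared lower genes it was -1.04, with no test since the calls chose them.

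Transporters of nutrients were found on both sides, and the ones named here other than PHT1;1 and NAS2 were named after their values were seen. Higher with SynCom were PHT1;1, a Pi uptake transporter of the root, LHT1, an amino acid importer, ZIP5, a zinc transporter, MOT1, a molybdate transporter, and NRAMP1, a manganese and iron transporter. NRAMP1 had medians of 73.9 and 119 CPM in A and of 71.0 and 86.8 CPM in B, and LHT1 of 70.3 and 160.4 CPM and of 70.4 and 123 CPM. Lower with SynCom were NAS2, a nicotianamine synthase of metal transport, ZIFL1, a zinc-induced facilitator-like carrier, and IRT3, a zinc and iron transporter. NAS2 had medians of 14.1 and 2.84 CPM in A. In B it had 63 counts over the 6 libraries without bacteria and 1 count over the 6 with SynCom, too few for a fold there.

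**Figure D2:**
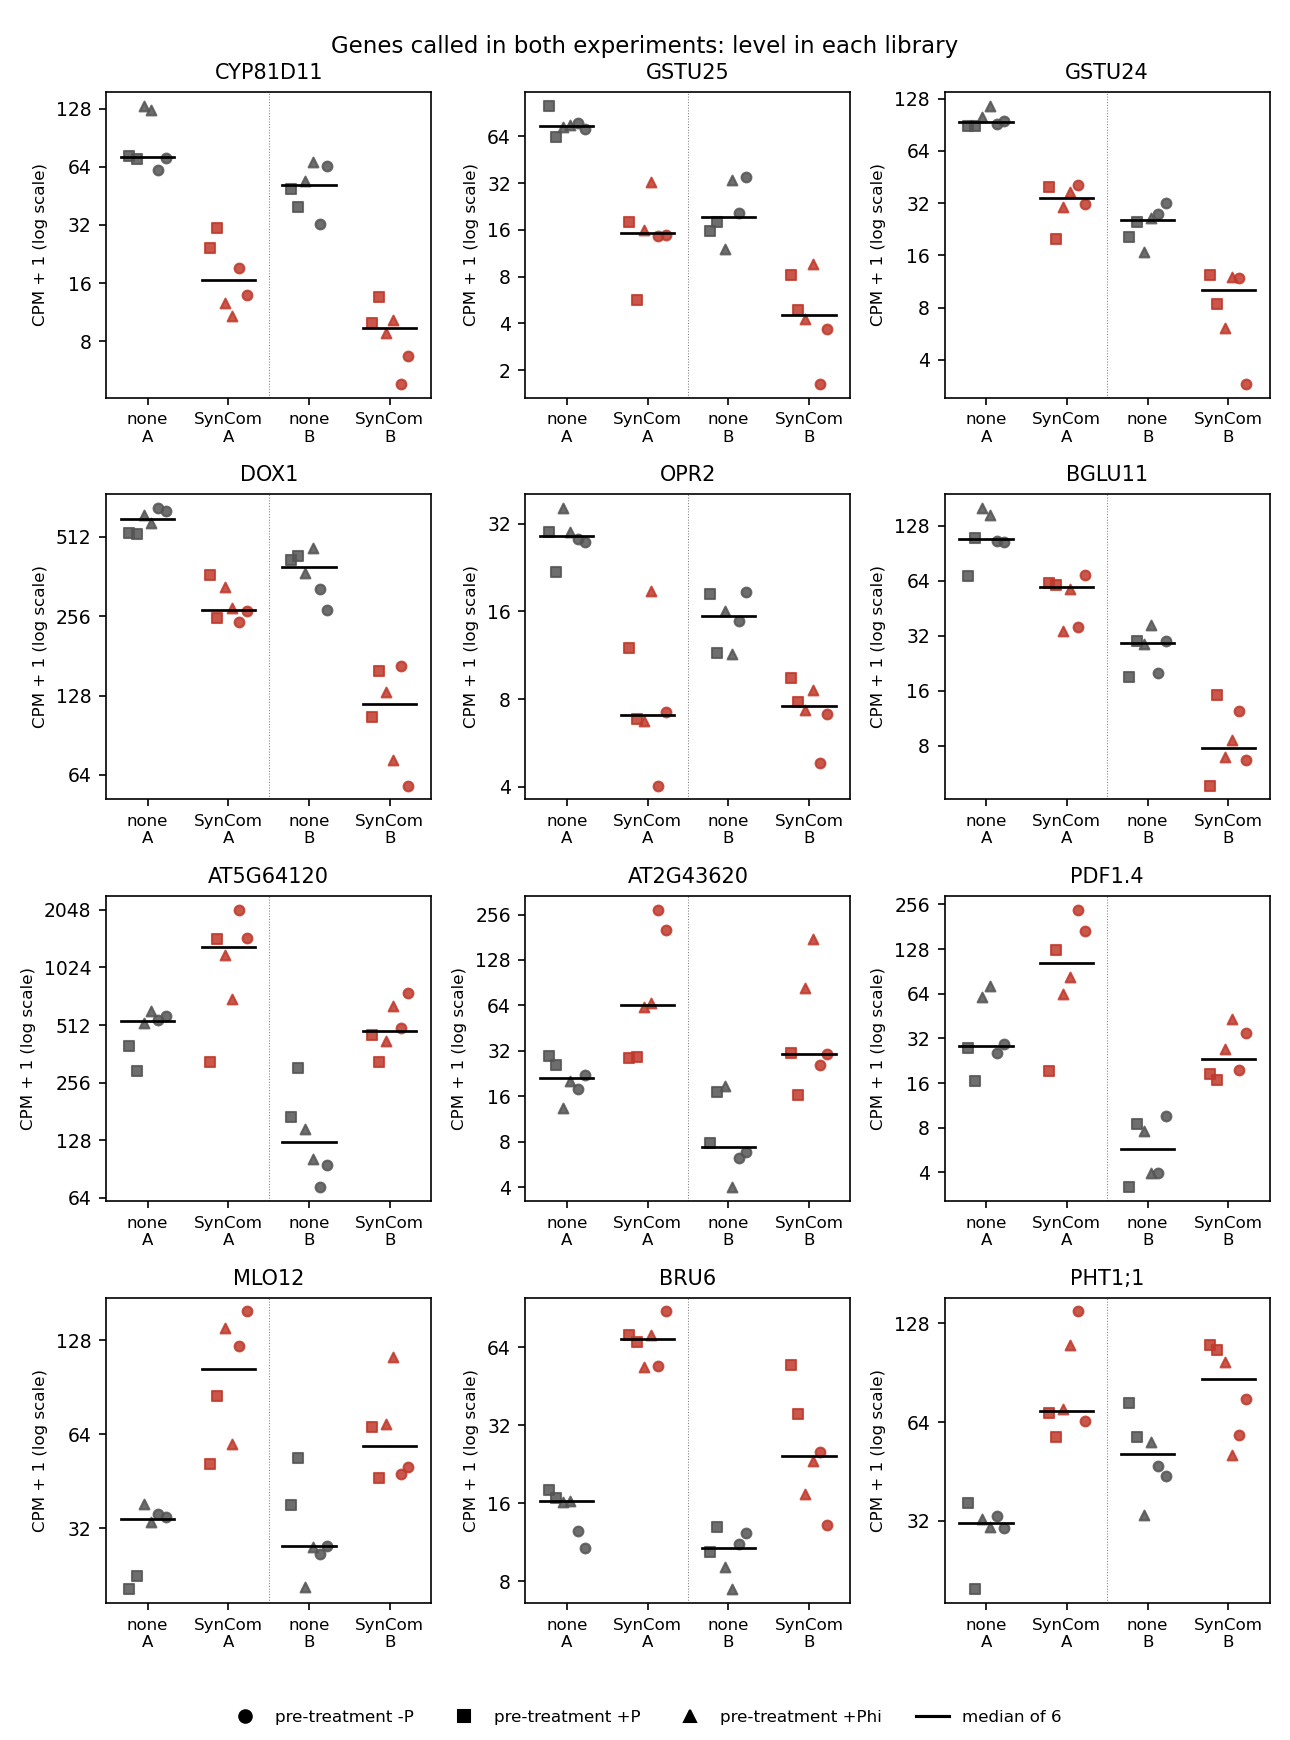
Level of 12 shared genes in each of the 24 phr1 phl1 libraries at low Pi, as CPM + 1 on a log scale, by experiment (A, B) and arm (none, SynCom). Each point is 1 library, its shape gives the pre-treatment, and lines are medians of 6 libraries. CYP81D11 lies between 3.83 and 30.0 CPM with SynCom and between 31.5 and 131 CPM without, and BRU6 rises in both experiments from different starting levels.

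Most shared genes kept their direction in each pre-treatment, although sizes varied. Within the 6 combinations of pre-treatment and experiment, each with 2 libraries an arm, the difference in mean log2 CPM had the shared direction in all 6 for 40 of 41 higher genes and for 37 of 38 lower genes. The exceptions were AT5G04730, an ankyrin-repeat gene, and the NAC transcription factor gene NAC074, with 5 of 6 each. These shares follow in part from how the genes were chosen. For PDF1.4 in A, the difference was 2.88 for -P, 1.21 for +P and 0.13 for +Phi. A test of the SynCom effect by pre-treatment called 0 of 17246 genes (0%), with 1401 at an unadjusted p under 0.05 and a lowest adjusted p of 0.0933 (edgeR, 2 degrees of freedom). With 2 libraries an arm in each combination, 0 calls cannot show that the effects were alike.

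Among Pi starvation genes, 1 gene was shared. The list of Pi signalling and transport had 15 tested members, with 3 called higher and 0 lower in the pooled fit, against 1.59% and 1.19% of all 17246. In A 2 were called higher and 0 lower, and in B 7 higher and 2 lower. Over all genes tested 2.28% were called higher in A, and 4.17% higher and 3.29% lower in B. For 6 of the 15 the effect differed between B and A, against 7.43% of all. PHT1;1 ran from 18.8 to 35.1 CPM without bacteria in A (median 30.5) and from 56.5 to 138 with SynCom (median 68.3). In B it ran from 32.3 to 72.4 CPM (median 50.3) and from 49.9 to 109 (median 85.7), with overlap. The fold change was 1.08 ± 0.19 (adjusted p = 0.00119, edgeR), 1.45 in A and 0.70 in B. PHT1;1 has close copies, and reads may have been shared among them. IPS1, a non-coding RNA that rises in Pi starvation, was called in the pooled fit (2.41 ± 0.45, adjusted p = 0.00251) and in A (adjusted p = 0.00403), with adjusted p = 0.0692 in B (edgeR). It had 22 counts without bacteria in A and 179 with SynCom, and 47 and 186 in B. SPX1, an inhibitor of PHR1 that senses Pi status, was called in the pooled fit (0.86 ± 0.22) and in B (1.46), and had 0.29 in A. SPX1 was not called in the pooled fit without the shallowest library (0.75), without B1 (0.69) or without B2 (0.63).

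Scavenging and lipid genes were called in B or in the pooled fit, and none in A. Of 12 tested Pi scavenging genes 2 were called lower in the pooled fit, the nuclease gene BFN1 (-1.28 ± 0.20) and the acid phosphatase gene PAP8 (-0.80 ± 0.16), and 0 were shared. Over all genes tested 1.19% were called lower in that fit. The call of PAP8 was lost without B1, B2, pre-treatment -P or +Phi, and that of BFN1 without pre-treatment +P. In B 3 of the 12 were called higher and 2 lower, where 4.17% and 3.29% of all genes tested were. PAP17, another phosphatase, had -0.19 in A and 1.94 in B, and the difference was called (adjusted p = 0.00273, edgeR). Of 13 membrane lipid genes 0 were called in the pooled fit and in A. In B 6 were called higher, where 4.17% of all genes tested were. SQD1, a sulfolipid enzyme, had medians of 207 and 195 CPM in A and of 74.9 and 202 CPM in B.

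For most of these Pi genes the SynCom effect was lower in the mutant than in Col-0. In Col-0 SynCom changed 5873 of 18479 genes (31.8%), and the effect in phr1 phl1 differed from that in Col-0 for 1814 (9.82%), 938 higher (5.08%) and 876 lower (4.74%) in the mutant. By this test the mutant effect was lower for 9 of 15 Pi signalling and transport genes, 9 of 12 scavenging genes and 11 of 13 lipid genes, where 4.74% of all genes were. It was higher for 4 of the 15 signalling and transport genes and for 0 of the others, where 5.08% of all genes were. These 4 were SPX4, NLA and PHO2, which restrain Pi uptake or signalling, and the transcription factor gene WRKY75, and their effects in Col-0 were -0.48, -1.08, -0.47 and -1.35. SQD2, the sulfolipid synthase, rose in Col-0 from a median of 45.1 to 592 CPM in A and from 53.6 to 324 in B. In phr1 phl1 its medians were 138 and 140.9 CPM in A and 73.9 and 140.5 in B, and the effect was lower by 2.48 ± 0.30 on the log2 scale (mutant minus Col-0 -2.48, adjusted p = 5.64e-07, edgeR). For PHT1;4, a Pi transporter, the difference was -2.29 ± 0.37, and for the galactolipid synthase gene MGD2 -2.70 ± 0.28. For IPS1 it was -2.40 ± 0.84 and not called (adjusted p = 0.0617). For PHT1;1 it was -0.95 ± 0.21 (adjusted p = 0.00364), with Col-0 effects of 3.28 in A and 0.76 in B, so that in B the effects of both genotypes lay close together. The test within experiment A called 1470 genes (7.95%) and the test within B 51 (0.276%, edgeR). The count of 1814 was 2089 without the Col-0 library in doubt, and 252 (without B2) to 819 (without A1) when a replicate label was left out.

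Most genes shared by A and B were called in the same direction in Col-0, in libraries that had no part in choosing them. Of the 41 shared higher genes 34 were called higher in Col-0, where 15.7% of all genes were, and of the 38 shared lower genes 32 were called lower, where 16.1% were. CYP81D11 fell by 2.99 on the log2 scale in Col-0, from medians of 48.5 to 11.7 CPM in A and of 38.7 to 1.82 CPM in B. Of all 79 shared genes, 17 differed from Col-0 in the size of the effect, 10 of the higher and 7 of the lower genes, against 9.82% of all genes. The mutant libraries that chose the 79 form one side of this difference, and that choice can overstate the mutant effect. Nothing is therefore read from the share, and the sizes of single differences carry the same limit. BRU6 was one of the 17, with 1.84 in the mutant as the mean of A and B and 0.42 in Col-0 (adjusted p = 1.36e-05, edgeR). In Col-0 its medians were 31.7 and 54.3 CPM in A and 6.97 and 9.35 CPM in B.

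ABCB15 also differed, with -1.37 in the mutant and -0.03 in Col-0 (adjusted p = 0.000965, edgeR), where its medians were 31.1 and 31.7 CPM in A and 25.1 and 17.0 CPM in B. AT3G18250, AT1G10340, an ankyrin repeat gene, and GSTU11 rose in the mutant and had 0.35, -0.03 and -0.26 in Col-0. The mutant effect was more negative for ESK1, a cell wall acetylation gene, ALPHA-VPE, a vacuolar protease, and PPa2, a pyrophosphatase, which had 0.02, -0.18 and 0.11 in Col-0. The pooled calls in the mutant were lost without B1 for GSTU11, AT1G10340 and ALPHA-VPE, and without A2 for GSTU11 and PPa2. GSTU11 had 13 counts in all in the mutant without bacteria in B, and its arms overlapped in both experiments. AT3G03670 differed at adjusted p = 0.047 (edgeR), with 1.52 in Col-0.

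**Figure D3:**
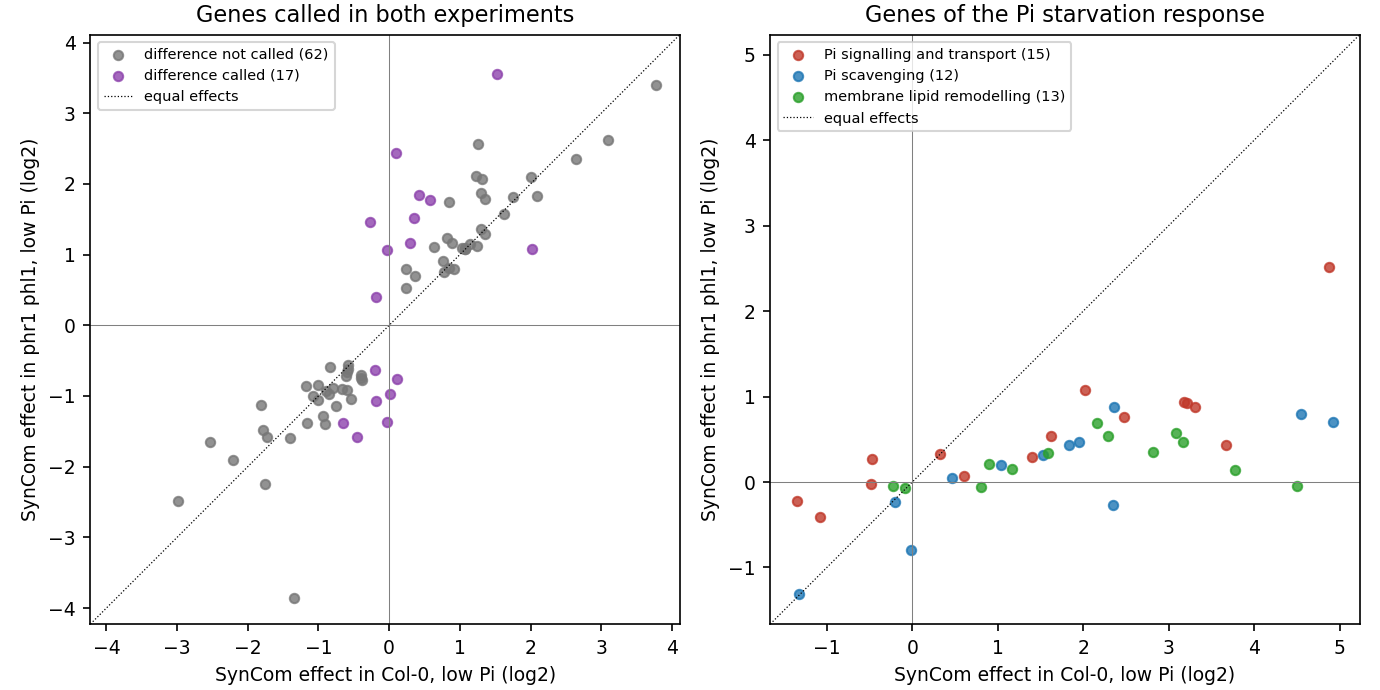
SynCom effect at low Pi in Col-0 (horizontal axis) and in phr1 phl1 (vertical axis), each the mean of experiments A and B as log2 fold change, for the 79 shared genes (left) and for 40 tested genes of 3 Pi starvation lists (right). Dotted lines mark equal effects. Of the shared genes 17 were called different, and SQD2 lies below the line at 2.82 in Col-0 and 0.35 in phr1 phl1.

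At high Pi 62 of the 79 shared genes were called in the same direction in the mutant, again in libraries that had no part in choosing them. SynCom changed 1118 of 18006 genes there (6.21%), 853 higher and 265 lower. Of the 41 shared higher genes 37 were called higher, where 4.74% of all genes were, and of the 38 shared lower genes 25 were called lower, where 1.47% were. The effect differed between low and high Pi for 42 of 18006 genes (0.233%), and 3 of these were shared genes, HMT3, AT2G18193 and IRT3. The low Pi libraries that chose the shared genes form one side of this difference too. HMT3 rose by 1.85 at low Pi and had 0.08 at high Pi, and low minus high Pi was 1.77 ± 0.38 (adjusted p = 0.0387, edgeR). At high Pi it had medians of 3.45 and 3.98 CPM in A and 2.80 and 3.11 CPM in B. AT2G18193 fell by 1.91 at low Pi and had -0.18 at high Pi (adjusted p = 0.0236). IRT3 had -0.69 at low Pi and 0.76 at high Pi. The 42 calls became 36 without the high Pi library in doubt, 5 without A1, 15 without A2, 0 without B1 and 1 without B2.

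Defence hormone genes were called mostly in experiment B. Over all genes tested 1.59% were called higher in the pooled fit, 2.28% in A and 4.17% in B, against which the counts of these lists stand. Of 29 tested jasmonate genes 13 were called higher and 0 lower in the pooled fit, with 2 higher in A, 17 higher in B and 0 shared. LOX2, the lipoxygenase of jasmonate synthesis in leaves, had medians of 231 and 259.7 CPM in A and of 54.9 and 472 CPM in B, and the effects differed (adjusted p = 0.0116, edgeR). JAZ9, a repressor of jasmonate signalling, was called in A (1.21) and had 0.91 in B (adjusted p = 0.061, edgeR). VSP2, a vegetative storage protein and jasmonate marker, was called in the pooled fit (2.23 ± 0.54) with 33 counts in all without bacteria in A, and it was not called without A2 (2.15), B1 (2.62) or B2 (2.58). OPR3, the reductase of jasmonate synthesis, had 0.44 in A and 2.52 in B. The pooled calls of LOX2 and OPR3 were lost without B1 and without B2, and that of JAZ9 without A1 and without B1.

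Of 29 tested salicylic acid genes 3 were called higher in the pooled fit, CBP60G, FMO1 and ALD1, and 19 were called higher in B against 1 in A. All 3 pooled calls were lost without A1, without A2 and without B1, and that of FMO1 also without B2. PR1, the marker of this hormone, ran from 163 to 781 CPM without bacteria in A (median 491) and from 40 to 767 with SynCom (median 397). In B it ran from 0 to 20.1 CPM without bacteria (median 0.452) and from 1.54 to 1043 with SynCom (median 172). The arm without bacteria thus lay high in A and near 0 in B, and the effect differed (adjusted p = 0.00196, edgeR). Of 21 pattern-triggered immunity genes 1 was called in the pooled fit, the receptor kinase gene FRK1 (1.76 ± 0.35, adjusted p = 0.00505, edgeR), with 0 called in A and 11 in B, 10 of them higher. The level of FRK1 without bacteria also differed, with medians of 40.2 CPM in A and 3.15 in B, and FRK1 was not called without B1 (1.43).

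Aliphatic glucosinolate genes were called in B and not in A. Of 19 aliphatic glucosinolate genes 0 were called in the pooled fit and in A, 17 were called higher in B, and for 15 the effects differed between B and A. That difference was called for 7.43% of all genes tested. CYP79F1, the entry enzyme of that pathway, had medians of 12.5 and 6.25 CPM in A and of 0.834 and 17.5 CPM in B. Of 9 indole glucosinolate and tryptophan genes 4 were called higher in the pooled fit, among them CYP79B2 (1.06 ± 0.25) and CYP79B3 (0.93 ± 0.18), and 6 in B. The other 2 of these 4, TSB1 (adjusted p = 0.0464) and ASA1 (adjusted p = 0.0491, edgeR), were not called when any one of the 4 replicate labels was left out. CYP79B2 was not called without B1 or B2, and CYP79B3 not without B2. Of 6 camalexin genes 2 were called higher in the pooled fit, GGP1 and CYP71A12, and 3 in B. CYP71A12 was not called without A1, A2 or B1 or without the shallowest library, and GGP1 not without B1, B2 or the shallowest library. Of 5 genes of the ERF branch of defence, 1 was called, PR3, a chitinase, at -0.82 ± 0.21, and this call was lost without B1 and without B2. PDF1.2A, the defensin marker of that branch, had -0.68 in A and 1.27 in B and was not called.

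**Figure D4:**
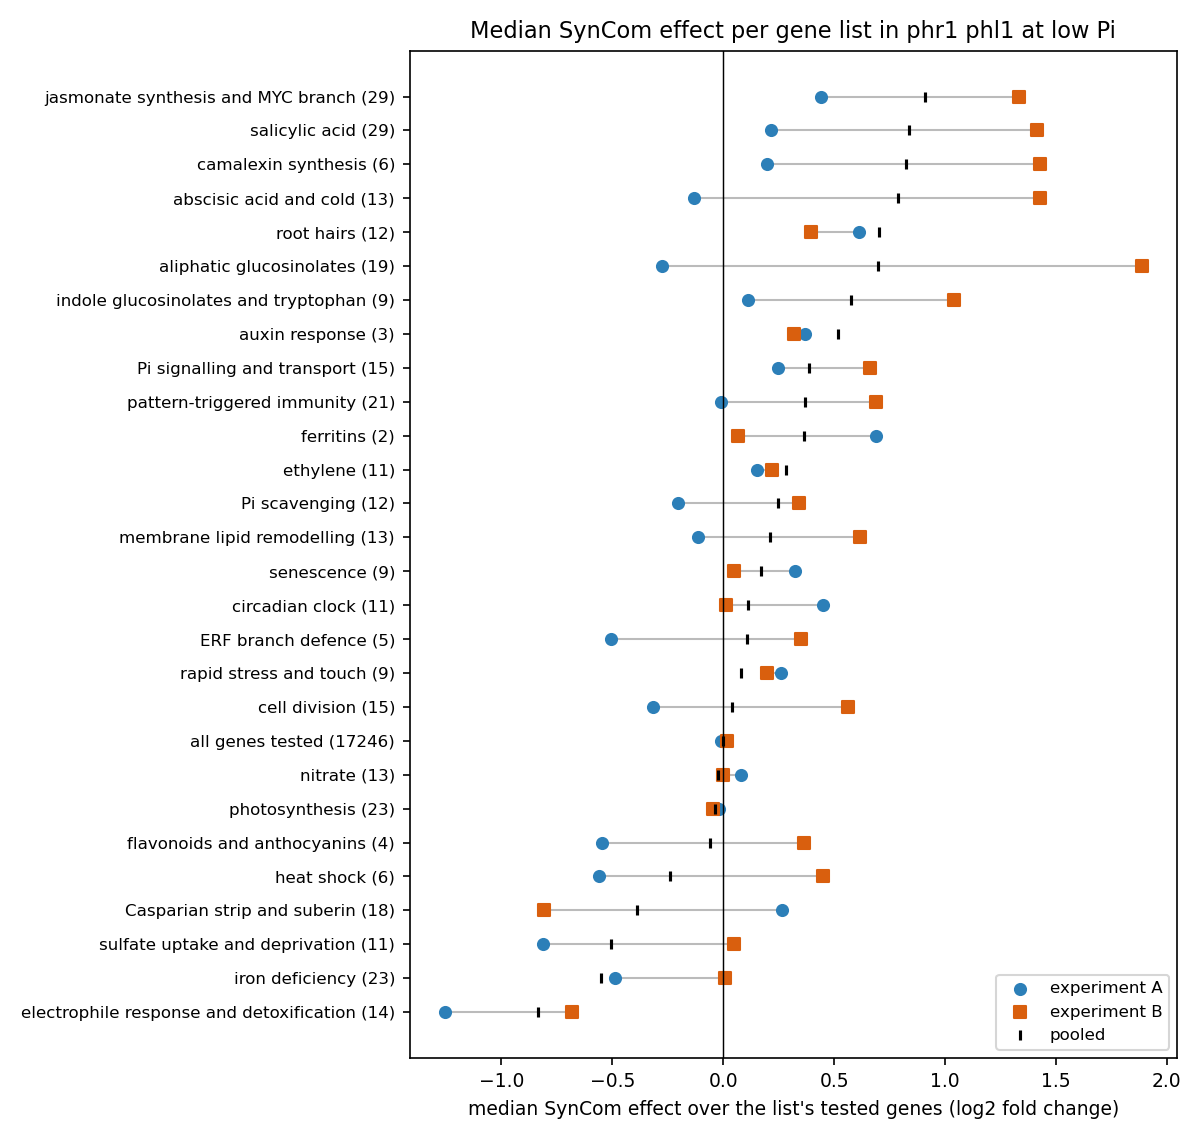
Median SynCom effect in phr1 phl1 at low Pi for each gene list, with the number of tested genes in brackets, in experiment A (circles), experiment B (squares) and the pooled fit (bars), as log2 fold change. The electrophile response and detoxification list lies below 0 in both experiments, with a pooled median of -0.84, and the aliphatic glucosinolate list lies at -0.28 in A and 1.89 in B.

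Of 23 tested iron deficiency genes 11 were called lower in A, with 3 higher and 2 lower in B, and 8 lower in the pooled fit. Over all genes tested 1.43% were lower in A, 4.17% higher and 3.29% lower in B, and 1.19% lower in the pooled fit. BHLH39, a transcription factor of the iron response, had medians of 40.9 and 5.00 CPM in A, without overlap, and of 2.39 and 1.2 CPM in B. OPT3, which moves iron in the phloem, ran from 234 to 305 CPM without bacteria and from 39.0 to 147 with SynCom in A. In B it ran from 28.4 to 76.2 and from 63.0 to 167 CPM, so it was called lower in A (-1.82) and higher in B (1.22). AT2G30766, a gene of the list without a symbol in RefSeq's table, had 437 and 42 counts in A and 1 and 30 counts in B. It was also called in opposite directions. BHLH100, another factor of this response, had 703 and 32 counts in A and 2 and 11 in B. PDR9, an exporter of iron-mobilising coumarins, was called lower in the pooled fit (-0.82 ± 0.14) and had -0.49 in A and -1.17 in B. FER4, a ferritin that stores iron, had medians of 13.3 and 28 CPM in A and of 29.7 and 33.8 CPM in B, and the difference was called (adjusted p = 0.0181, edgeR).

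Genes with opposite calls were 26 higher in A and lower in B, and 14 the other way. AT5G02230, a haloacid dehalogenase-like hydrolase gene, had medians of 12.8 and 28.4 CPM in A and of 31.0 and 11.3 CPM in B. AT2G39530, an uncharacterized gene, had 4.65 and 16.6 CPM in A and 18.0 and 7.89 CPM in B. AT5G05250, an uncharacterized gene, had medians of 55.4 and 9.08 CPM in A and of 3.28 and 8.17 CPM in B.

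**Figure D5:**
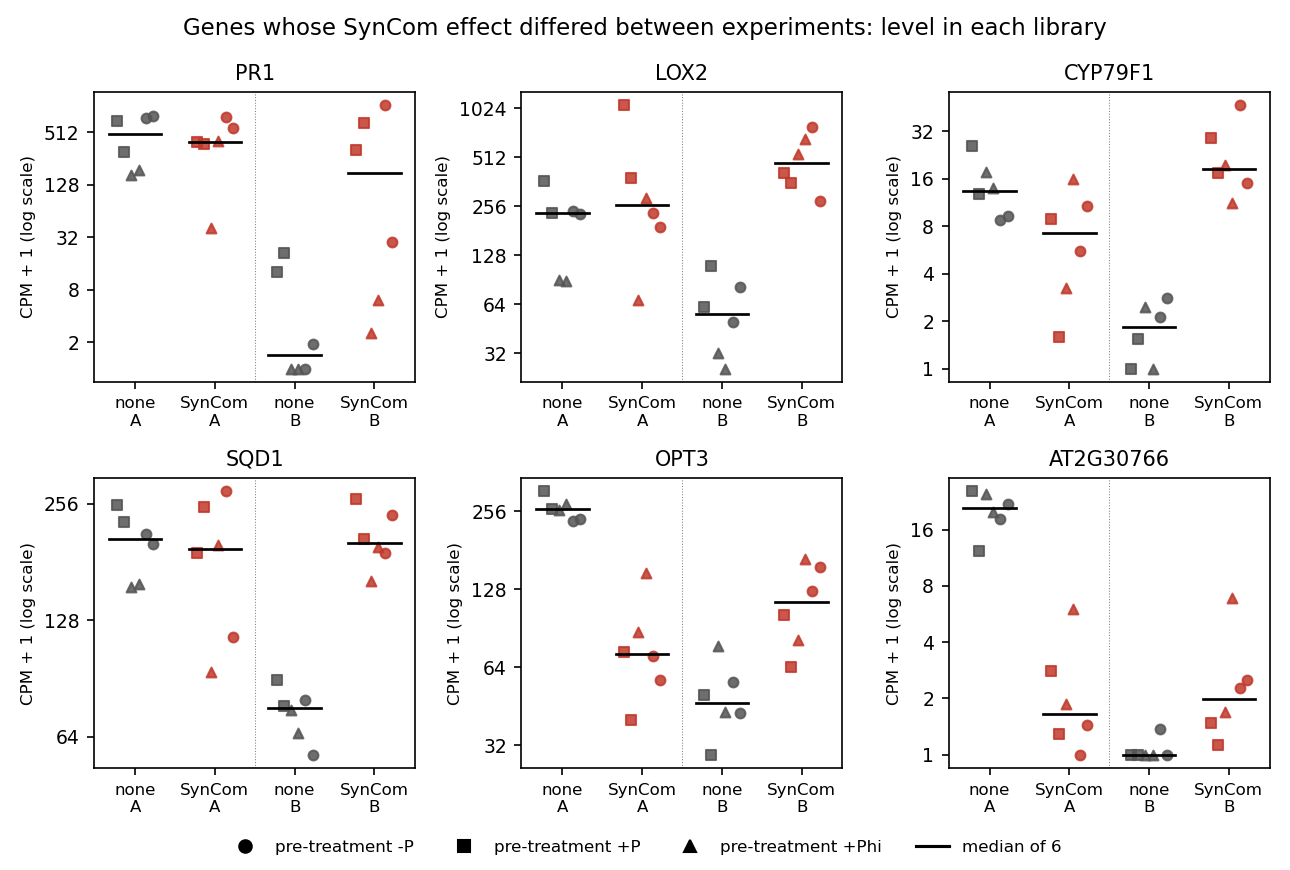
Level of 6 genes whose SynCom effect differed between experiments, as CPM + 1 on a log scale in each phr1 phl1 library at low Pi, by experiment (A, B) and arm (none, SynCom). Points are libraries with the shape giving the pre-treatment, and lines are medians of 6. PR1 has medians of 491 and 397 CPM in A and of 0.452 and 172 CPM in B, and SQD1 rises in B alone, while OPT3 and AT2G30766 fall in A and rise in B.

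The remaining lists held few calls in the pooled fit, where 1.59% of all genes tested were called higher and 1.19% lower. In A 2.28% of all were called higher and 1.43% lower. Of 11 sulfate genes 3 were called lower in the pooled fit, 5 lower and 1 higher in A, and 0 in B. The lower ones in the pooled fit were led by LSU1, with 134 and 15 counts in A and 8 and 1 in B. The pooled calls of SHM7 (-0.51) and AT1G04770 (-0.82) were lost without A1 and without A2, and that of AT1G04770 also without B1. Of 11 clock genes 2 were called higher in the pooled fit, PRR5 (0.77 ± 0.14) and TOC1 (0.43 ± 0.10), and the call of TOC1 was lost without A1, A2 or B2. In A the evening genes PRR5, TOC1 and GI were called higher (0.91, 0.59 and 0.50) and the morning genes CCA1 and LHY lower (-0.82 and -1.10). In B 0 of the 11 were called, and the medians were 40.8 and 34.9 CPM for CCA1 and 26.9 and 32.4 CPM for LHY. Of 13 nitrate genes 1 was called, the transporter gene NRT2.1 (-0.88 ± 0.22), and of 11 ethylene genes 1, the synthase gene ACS7 (1.01 ± 0.25). NRT2.1 was not called without A1, B1 or B2, and ACS7 not when any one of the 4 replicate labels was left out. For 23 photosynthesis, 15 cell division, 6 heat shock, 9 senescence, 9 rapid stress, 4 flavonoid, 3 auxin and 13 abscisic acid genes, 0 were called in the pooled fit. In B 4 of the abscisic acid and cold genes were called higher, where 4.17% of all genes tested were.

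Markers of tissues were compared as sums of CPM. The 5 leaf mesophyll markers had median sums of 20605 CPM without bacteria and 19760 with SynCom in A, and of 29634 and 31124 in B. The 6 root endodermis markers had 17.41 and 23.4 CPM in A, with ranges of 12.0 to 22.9 and of 9.90 to 37.0. In B they had 78.0 and 35.7 CPM, with ranges of 53.2 to 115 and of 7.66 to 58.0, and 0 of the 6 were at 0 in every library. Of 18 Casparian strip and suberin genes 0 were called in A and in the pooled fit. In B 7 were called lower, where 3.29% of all genes tested were. The endodermis sum moved with SynCom in B, and its part in the results of B was not tested. The 3 root markers had median sums of 982 and 978 CPM in A, and of 1360 and 1133 in B, where the ranges of 1215 to 1760 and of 865 to 1372 overlapped. One of the 3, the aquaporin gene TIP2;3, was called lower in B (-1.77, adjusted p = 0.0151, edgeR), and another, PHT1;1, was called higher. The 3 markers of dividing cells had 34.1 and 28.2 CPM in A and 41.5 and 45.5 in B, and none was called. The 5 root hair markers had 25.1 and 46.5 CPM in A and 53.5 and 64.0 in B. Of 12 root hair genes 1 was called higher in the pooled fit, PRP1, with 6 counts in all without bacteria in B. Over all genes tested 1.59% were called higher in that fit. The effect on 10 of the 12 was called lower in phr1 phl1 than in Col-0, against 4.74% of all genes.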

How the data were processed

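RNA-seq libraries of whole seedlings were prepared from poly(A) RNA without strand marking, per the labels' protocols. The authors deposited one table of raw read counts per gene for all libraries. The submitters' processing notes name CASAVA 1.8, cutadapt 1.3, TopHat2 2.1.1, HTSeq 0.6.1p1 and the TAIR10 build.

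From the counts, 17246 of 27206 genes passed filterByExpr (minimum count 10, by 4 groups of SynCom and experiment) and were tested with edgeR 4.0.16 (R 4.3.3) by quasi-likelihood with TMM scaling, in 1 pooled fit (19 residual degrees of freedom) and 1 fit with an effect per experiment (16). Differences from Col-0 and from high Pi came from fits of 48 libraries, each effect being the mean of its effects in A and B. Benjamini-Hochberg adjustment ran over all genes tested, with calls under 0.05. CPM values use totals scaled by TMM over all libraries of the series, and errors are SE. Errors cover the spread between libraries, and depth was 720256 to 7440059 counts per library. In counts simulated for the pooled comparison on 17226 genes, 68.7% of genes changed 1.5-fold, 94.0% of those changed 2-fold and 100% of those changed 4-fold were called, with 1 false call. For genes called in both experiments the shares were 13.4%, 70.1% and 97.0%, with 0 false calls. Changed genes had at least 5 CPM on average and the same fold in both experiments, and all other genes had no SynCom effect. In the data effects often differed between A and B, so that these shares and false calls need not carry over. No replicate pair was identical, and counts of all 12 pairs differed beyond sampling noise, with a chi-square per degree of freedom of 1.39 or more.

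The members and gene lists were chosen with earlier results of these data known. Named genes were up to 4 per list with the smallest pooled p, up to 12 shared genes per direction with the largest pooled change at a mean of 5 CPM or more, genes with opposite calls, genes that differed from Col-0, the targeted genes and fixed markers; other genes were named after their values were seen. Of 27206 loci 10376 had a symbol in RefSeq's table, and the rest are given by locus. Alternatives were DESeq2 1.42.0 and its size factors, limma 3.58.1 (voom), other filters, other library sets, a replicate block and leaving out libraries.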

Additional observations from a re-analysis of the deposited data

Results flagged for a closer look

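Among 159 sets of 6 libraries (40 genes, each arm and experiment), 13 had a library whose gap to its neighbour, as a share of the whole range of log2(CPM + 1), was above 0.625, where chance gives about 1 in 20. IPS1 in A with SynCom had its highest library, -P A1, at 51.7 CPM against 5.04 to 9.03 in the others (share 0.766), and this is the shallowest library. PAP17 in A with SynCom had its lowest, +Phi A1, at 25.6 CPM against 90.0 to 169 (0.664). PR1 in the same library was at 40 CPM against 376 to 767 (0.757). BHLH100 had a low library without bacteria in A, +P A2 (0.802), and a high one with SynCom in B, +Phi B2 (0.791). AT2G36690 without bacteria in A was highest in -P A2 (0.736), and AT4G12500 with SynCom in A was lowest in +P A1, at 29.2 CPM against 86.7 to 126 (0.742). AT5G44585 in B was highest in +P B2 without bacteria (0.745) and in +Phi B2 with SynCom (0.634). PDF1.2A without bacteria in B was highest in +P B2, at 42.6 CPM against 0 to 1.81 (0.726). NAS2 with SynCom in B had its only count in +Phi B1 (share 1). PHR1 was lowest in +Phi A2 with SynCom, at 11.4 CPM against 28.4 to 37.6 (0.761), and in +Phi B1 without bacteria in B, at 18.0 CPM against 33.4 to 38.0 (0.826).

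Tests of a difference between groups called 1282 genes for experiment B against A, 1814 for phr1 phl1 against Col-0 and 42 for low against high Pi (edgeR, adjusted p under 0.05). For experiment B minus A the difference of log2 effects was 1.17 for SPX1, 2.13 for PAP17, 6.13 for BHLH100, 2.14 for AT4G12500, -2.24 for GLR2.3, 6.27 for PR1 and 5.78 for CYP79F1. BHLH100 had 2 and 11 counts in B, so that its fitted value depends on the prior count and gives no fold.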

How the results depend on the processing

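Of 65 named genes called in the pooled fit, 0 changed sign under the 18 alternatives with that fit (fewer where a gene was filtered out), while 22 of the 83 named genes that were not called did under at least 1, among them PDF1.2A, OPT3, AT2G30766, PHR1 and AT5G02230. Of 24 named shared genes, 13 stayed called in the pooled fit under every alternative and 11 were not called under at least 1. DESeq2's size factors, a filter of 1 CPM in 12 libraries, and leaving out the shallowest library, the Col-0 library in doubt or the high Pi library in doubt kept every count they bear on within 1.5 times. With no filter, the test by pre-treatment called 65 genes rather than 0.

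DESeq2's Wald test called 840 genes in the pooled comparison, 1015 in A, 1945 for A against B and 101 for low against high Pi. limma-voom with quality weights called 1651 in A, 149 shared, 2495 for A against B, 57 by pre-treatment and 3380 against Col-0. With all libraries of the series in the fit, 823 were called in the pooled comparison, 1968 in A, 2604 in B, 197 were shared and 3112 differed between A and B. Separate fits gave 372 in A and 51 shared. Without an experiment term 162 were called in the pooled comparison, and the mean of the effects in A and B called 802. The causes were not tested.

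Leaving out each replicate label in turn gave 195 to 330 genes in the pooled comparison, 56 to 514 in A, 134 to 1156 in B, 13 to 21 shared, 61 to 570 for A against B, 0 to 9 by pre-treatment, 252 to 819 against Col-0 and 0 to 15 for low against high Pi; these fits have fewer libraries. Without pre-treatment -P the pooled, A, B, shared and A against B counts were 135, 200, 589, 22 and 462. Without +P they were 244, 203, 598, 42 and 315. Without +Phi they were 1853 in A, 712 in B and 1997 for A against B, and of 56 genes then shared 26 were among the 79.

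Summing the 2 closest pairs of replicates, an alternative chosen after seeing the data, as was leaving out the high Pi library, gave 327 in A, 44 shared and 852 for A against B. Same-numbered libraries did not deviate together on average, with a mean correlation of -0.02 over 30 pairs of groups (-0.39 to 0.39). Of these pairs 7 were over 0.1, 1 in A and 6 in B. A mean near 0 cannot show that the numbers pair no libraries. With the replicate label as a block, 386 genes were called in the pooled comparison, 520 in A, 1119 in B, 57 shared and 1060 for A against B, and of the named genes TSB1, ASA1, CYP71A12 and AT1G04770 were then not called in the pooled comparison. Depth limits genes with few counts, and small changes were often not detectable in both experiments.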
